A study of Mus musculus with 19 samples.

Results

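Insig1 was followed here as 1 end of every chromatin contact it made in capture Hi-C maps of the mouse Shh locus. The gene was taken as 2 neighbouring bins of 10 kb on chromosome 5 (mm9), chr5:28390001-28410000, of 280 bins that cover chr5:27800001-30600000. The bins were set by position, and no contact value enters the rule. Earlier results of these data were known when the choice was made. All other bins served as partners, and every contact was read in 9 maps made from 19 samples. Genes were placed by the chosen coordinates and by gene order in a table of another build, and no mm9 gene annotation was used here.

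Insig1 encodes a membrane protein of the endoplasmic reticulum that holds the SCAP and SREBP complex back when sterols are plentiful, and so takes part in the feedback control of cholesterol synthesis. On the chromosome it lies between Htr5a, a serotonin receptor gene, and En2, a homeobox gene of the midbrain and hindbrain, and the order goes on with Cnpy1, Rbm33 and Shh. Shh encodes a secreted patterning signal, and the ZRS, the enhancer that drives it in the limb, sits inside the distant gene Lmbr1. Shh and the ZRS share a topological domain, a stretch of chromatin whose parts meet each other more often than they meet the outside. CTCF, a DNA binding protein, is found at many domain borders, where with cohesin it can anchor loops. Insig1 lies outside that domain, below its lower border.

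The wild type limb bud map (C57BL/6, E10.5, limb buds) merged 3 samples. Wild type midbrain (C57BL/6, E10.5) and wild type ES cells (G4, an F1 hybrid ES cell line) had 2 samples each, and 1 of the ES cell samples is labelled E10.5 and the other has no stage. All other maps merged 2 samples, called technical replicates in the series design, of strain label G4 at E10.5. In limb bud these carried deltaCTCF i4i5 (loss of the CTCF sites called i4 and i5), deltaCTCF i4i5ZRS (those and a CTCF site at the ZRS), deltaZRSreg (a deletion named for the ZRS, whose extent is not in the labels), deltaCTCF i4i5ZRSreg (both of these losses) or Lmbr1deltaprom/deltaprom (loss of the Lmbr1 promoter). In midbrain 1 map carried deltaCTCF i4i5ZRS. Zygosity is in the label of the Lmbr1 promoter allele only, and how many clones lie behind each mutant is not given in the sources used here. Wild type embryos and mutants differ in strain label, so strain and genotype cannot be told apart in any ratio of a mutant map to its wild type. The same holds for strain and cell type in ES cells against limb. Each tissue is a mixture of cells, in which more cells with a contact and more frequent contact per cell cannot be told apart.

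The deposited signal per pair of bins was already merged over samples and balanced, which gives all bins of a map 1 common total. A contact level is given as observed over expected, the signal of Insig1 with a set of bins over the mean signal of all pairs at the same separations in that map. A level of 1 is the average for that separation. With 1 merged map per group there is no spread between replicates and no test. The intervals in brackets are 95% counting intervals of the recovered contacts, which cover counting error only and compare the libraries, not the conditions. Maps held 1177173 (limb i4i5) to 3218492 (ES cells) contacts. Of these, 13215 to 36835 joined Insig1 to a bin 20 kb or more away, with 31845 in wild type limb. The lower Insig1 bin had more contacts in all than 84.3 to 90.4% of the 280 bins, and the upper one more than 60.7 to 71.8%.

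The Insig1 promoter is shown as the sequence the 2 bins were chosen to hold, which could not be tested without an mm9 annotation. The 250 bases before the RefSeq start (GRCm38.p6, chromosome 5, + strand, 5′ to 3′) are printed with each CG pair in capitals.
Insig1 promoter: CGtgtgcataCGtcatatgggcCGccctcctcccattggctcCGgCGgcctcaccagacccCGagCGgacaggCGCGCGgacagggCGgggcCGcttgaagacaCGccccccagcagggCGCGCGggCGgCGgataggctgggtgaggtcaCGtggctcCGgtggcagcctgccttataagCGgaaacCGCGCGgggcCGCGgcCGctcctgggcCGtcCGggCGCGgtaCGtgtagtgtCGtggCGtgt
This stretch was 72.8% G and C and held 34 CG pairs, against a median of 6 over 32851 windows of the same length before other gene starts. GATC, the sequence that DpnII cuts in the making of these libraries, had 0 matches on either strand, and 41.9% of all windows held at least 1.

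4 stretches of chromatin were read apart. The lower bins, chr5:27800001-28380000, are 58 bins at 20 to 590 kb from Insig1. En2 to Rbm33, chr5:28480001-28750000, is 27 bins at 80 to 340 kb above it. The Shh domain, chr5:28770001-29700000, is 93 bins at 370 to 1290 kb, between the strongest minima of insulation near Shh and near the ZRS, which lay in the bins that start at 28760001 and 29700001. The upper flank is the 50 bins above the upper border, at 1310 to 1800 kb.

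Seen from Insig1 in wild type limb, contact fell into 1 clear peak below the gene, a smaller one between En2 and Rbm33, a trough over the lower part of the Shh domain, and a second rise towards and beyond the upper border. The same order of peaks and troughs was seen in midbrain and ES cells. Across the whole of each stretch, the wild type limb level was 1.14 (1.12 to 1.16) with the lower bins and 0.997 (0.973 to 1.02) with En2 to Rbm33. It was 0.676 (0.656 to 0.696) with the Shh domain and 1.23 (1.18 to 1.28) with the upper flank. The lowest of these levels was thus that of the Shh domain, although the upper flank lies farther away. Pairs inside the domain enter the expected value only at separations shorter than those of the upper flank. Their part in this order was not tested.

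**Figure D1:**
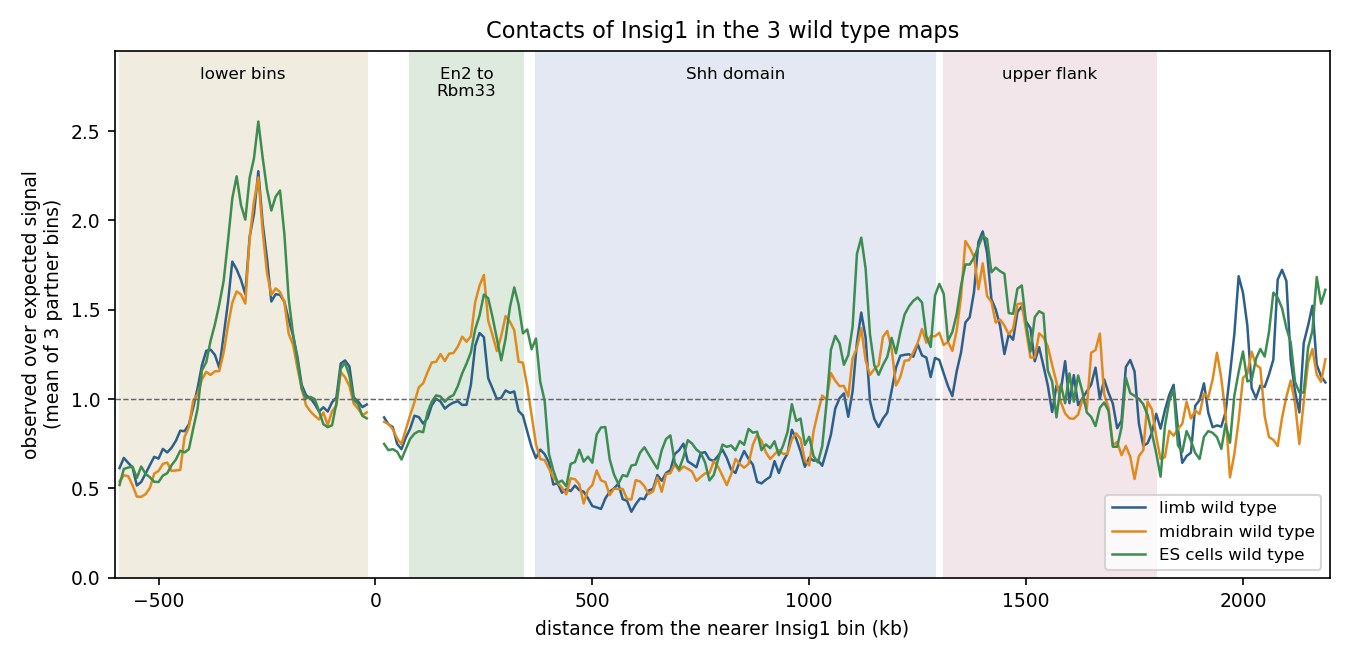
Level of Insig1 contact (observed over expected, mean of 3 neighbouring partner bins) against the distance from Insig1 in kb, negative below the gene, in the 3 wild type maps. The dashed line is the average at each separation, and shaded bands are the 4 stretches named in the text. All 3 curves have a peak 200 to 390 kb below the gene, where ES cells are highest, and lie below 1 over most of the lower Shh domain, where the lowest bin differs between the maps.

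Below the gene, contact was concentrated between 200 and 390 kb from Insig1 (chr5:28000001-28200000). The level there was 1.64 (1.59 to 1.69) in wild type limb, 1.58 (1.53 to 1.64) in midbrain and 2.00 (1.95 to 2.04) in ES cells. The 6 mutant maps lay from 1.58 (limb i4i5ZRS) to 1.69 (Lmbr1 promoter), beside the 2 wild type tissues and below ES cells. Every one of the 20 bins was above 1 in 7 of the 9 maps, and 18 (limb i4i5) and 19 (limb i4i5ZRS) were in the other 2. Closer to the gene, at 20 to 90 kb, the level was 0.975 to 1.10, and at 400 kb and more it was 0.629 to 0.751.

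A single bin was the peak below Insig1 in 9 of 9 maps. It starts at 28110001, 280 kb from the gene. Its level was 2.48 (2.23 to 2.74) in wild type limb, 2.59 in midbrain and 2.79 in ES cells. Among the mutants, limb i4i5ZRS had 2.98, the Lmbr1 promoter map 2.84, i4i5ZRSreg 2.82, ZRSreg 2.61, limb i4i5 2.57 and midbrain i4i5ZRS 2.52. These peaks rest on 164 (limb i4i5) to 448 (ES cells) contacts, and the counting intervals of all 9 overlap.

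Summed over all 58 lower bins, the maps differed little. The order of the levels was ES cells at 1.19, i4i5ZRSreg at 1.16, wild type limb at 1.14, ZRSreg at 1.13, Lmbr1 promoter at 1.11, limb i4i5ZRS at 1.10, limb i4i5 at 1.09, midbrain i4i5ZRS at 1.08 and wild type midbrain at 1.07. No 2 neighbours in that order differed beyond counting error. Each end of the order did differ from wild type limb. The log2 ratio to limb was -0.09 (-0.13 to -0.05) for wild type midbrain and 0.06 (0.03 to 0.09) for ES cells. In ES cells the excess lay at 200 to 390 kb, where the log2 ratio to limb was 0.29 (0.23 to 0.34) and 19 of 20 bins were higher. At 400 kb and more it was -0.16 (-0.28 to -0.04), with 5 of 20 bins higher.

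In contact of Insig1 with En2 to Rbm33, midbrain stood above limb. En2 is a patterning gene of this region of the brain, Cnpy1 lies next to it, and Rbm33 encodes an RNA binding protein. Wild type midbrain had a level of 1.25 (1.22 to 1.28) with this window and wild type limb 0.997, a 1.25-fold ratio, or 0.32 on the log2 scale (0.27 to 0.37). All 27 bins of the window were higher in midbrain. The ratio was 0.26 in the 9 bins next to Insig1, 0.35 in the middle 9 and 0.41 (0.30 to 0.51) in the 9 next to the lower border. Both maps carry the C57BL/6 label. Between Insig1 and the window, at 20 to 70 kb, the level was 0.822 in midbrain and 0.810 in limb, a log2 ratio of 0.02 (-0.04 to 0.09).

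The midbrain level held on the mutant allele. Midbrain i4i5ZRS had 1.29 (1.26 to 1.32) with En2 to Rbm33 and limb i4i5ZRS 1.05 (1.02 to 1.09), and both carry the G4 label. In log2 ratios to wild type of the same tissue, the allele gave 0.05 (-0.00 to 0.10) in midbrain and 0.08 (0.03 to 0.14) in limb, where the ratio to the Lmbr1 promoter map was -0.10. Other pairs of neighbouring bins below the window served as a comparison: over 32 of them that did not overlap, the midbrain over limb ratio with the same window ran from -0.22 to 0.36 with a median of 0.02, and Insig1 was above 31 of the 32.

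In the order of levels with En2 to Rbm33, the 2 midbrain maps led. Midbrain i4i5ZRS at 1.29 was followed by wild type midbrain at 1.25, which did not differ beyond counting error. The Lmbr1 promoter map at 1.13 and ES cells at 1.11 came next, and did not differ from each other. Then came limb i4i5ZRS at 1.05, limb i4i5 at 1.04, ZRSreg at 1.01, wild type limb at 0.997 and i4i5ZRSreg at 0.989, none beyond counting error from its neighbour in that run. Steps beyond counting error lay between midbrain and the Lmbr1 promoter map, 0.15 on the log2 scale (0.10 to 0.19), and between ES cells and limb i4i5ZRS, 0.08 (0.02 to 0.13).

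The peak inside the window was the bin that starts at 28640001, 240 kb above Insig1, in 8 of 9 maps. Its level was 2.04 (1.81 to 2.29) in midbrain and 2.00 in midbrain i4i5ZRS, against 1.60 (1.42 to 1.80) in wild type limb. The other limb maps lay between 1.55 (ZRSreg) and 1.93 (limb i4i5ZRS). ES cells had 1.63 there and their peak at another bin, which starts at 28720001, 320 kb above Insig1 and close to the lower border. That bin reached 1.74 (1.56 to 1.95) in ES cells, where midbrain had 1.18 (1.00 to 1.37) and wild type limb 0.988 (0.849 to 1.14). In the mutants it ran from 1.00 (limb i4i5ZRS) to 1.39 (midbrain i4i5ZRS), so the ES cell interval overlapped that of midbrain i4i5ZRS and of no other map. That bin was chosen as the ES cell maximum, and the interval does not cover the choice. Within ES cells the intervals of the 2 bins overlap, with 1.45 to 1.82 at the bin that starts at 28640001.

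ES cells differed from limb in how the window was filled. Their log2 ratio to wild type limb was 0.16 (0.11 to 0.20) over the whole window. It was -0.04 (-0.11 to 0.04) in the 9 bins next to Insig1, 0.15 (0.07 to 0.23) in the middle 9 and 0.50 (0.41 to 0.60) in the 9 next to the border, all of which were higher. At 20 to 70 kb above the gene ES cells were lower, 0.696 (0.676 to 0.717) against 0.810 (0.786 to 0.835), with 1 of 6 bins higher. Set against the Lmbr1 promoter limb map, which shares the G4 label, the ratio of ES cells over the whole window was -0.02.

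Insig1 reached the lower part of the Shh domain less than the average for that separation in every map. The level with the lower 31 bins of the domain (chr5:28770001-29080000, 370 to 670 kb) was 0.507 (0.482 to 0.534) in wild type limb and 0.530 in midbrain. It was 0.711 (0.680 to 0.743) in ES cells. ZRSreg had 0.600, the Lmbr1 promoter map 0.594, i4i5ZRSreg 0.556, limb i4i5ZRS 0.525, limb i4i5 0.524 and midbrain i4i5ZRS 0.472. ES cells lay above all other maps with no overlap of counting intervals. The middle 31 bins were at 0.594 to 0.729 and the upper 31 bins at 0.830 to 1.26. The level went up from lower to middle to upper bins in each of the 9 maps, in ES cells by less than counting error for the first step. The expected value takes in pairs inside the Shh domain, which are a larger share of all pairs at the shorter of these separations. Their part in the low levels and in the rise was not tested.

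Most other bins below the lower border made more contact with the domain than Insig1 did. Over 46 pairs of neighbouring bins that did not overlap, the median level with the whole domain was 0.885 in wild type limb, where Insig1 had 0.676 and only 2 of the 46 had less. In limb i4i5 0 of the 46 were below Insig1, at 0.629. In ES cells 17 of 46 were below it, at 0.829 against a median of 0.918. These pairs lie at other separations from the domain, which the expected value takes into account only on average.

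With the whole domain, ES cells were above wild type limb by 0.30 on the log2 scale (0.24 to 0.36), with 74 of 93 bins higher. The ratio was 0.49 (0.39 to 0.58) in the lower 31 bins. At the Shh promoter bins (chr5:28780001-28800000) Insig1 had 1.17 (1.04 to 1.31) in ES cells against 0.777 (0.678 to 0.888) in wild type limb, from 290 and 218 contacts. Midbrain had 0.718 there and the mutants 0.696 (limb i4i5) to 0.945 (Lmbr1 promoter). In the 3-bin means, the partner bins with the highest ES cell to limb ratios lay at 520, 370 and 590 kb, with log2 ratios of 1.13 (0.70 to 1.56), 1.00 and 0.77. The scaling decides the direction of the domain result: as a share of the map's total signal, ES cells were lower, at -0.12 for the domain and -0.34 for its upper 31 bins. Against the Lmbr1 promoter limb map, of the same strain label, the domain ratio was 0.15.

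Partner bins past 1.5-fold were counted in 3-bin means, over bins with 50 or more contacts in both maps together. In ES cells over limb, 18 of 272 Insig1 partner bins were higher and 0 were lower, where 4.02% and 11.6% of all pairs passed the fold in that comparison. Of the 18, 13 lay in the Shh domain and 3 in the En2 to Rbm33 window. In midbrain over limb, 3 of 273 were higher (2.12% of all pairs) and 9 were lower (2.67%). The 3 lay in the Shh domain, and the 9 lay in the upper flank or above it. The En2 to Rbm33 difference between midbrain and limb was thus spread over the window, with no bin past the fold.

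In the upper 31 bins of the Shh domain (chr5:29390001-29700000, 990 to 1290 kb), observed over expected levels were lower in the maps without i4 and i5. The level was 1.01 (0.963 to 1.07) in wild type limb, 1.15 (1.08 to 1.21) in midbrain, 1.26 (1.19 to 1.34) in ES cells, 1.08 (1.03 to 1.14) in ZRSreg and 1.12 (1.06 to 1.17) in the Lmbr1 promoter map. Those are the 5 maps that keep i4 and i5. Midbrain over limb was 0.17 (0.06 to 0.29), but 0.014 from the lower Insig1 bin alone and 0.33 from the upper one. Without these sites midbrain i4i5ZRS had 0.837 (0.781 to 0.895), limb i4i5ZRS 0.836 (0.777 to 0.898), i4i5ZRSreg 0.833 (0.784 to 0.883) and limb i4i5 0.830 (0.762 to 0.902). No counting interval of one set reached one of the other. As a share of the map's total signal this split was lost, since ES cells then had a log2 ratio to wild type limb of -0.34, below i4i5 at -0.02 and i4i5ZRSreg at -0.14.

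**Figure D2:**
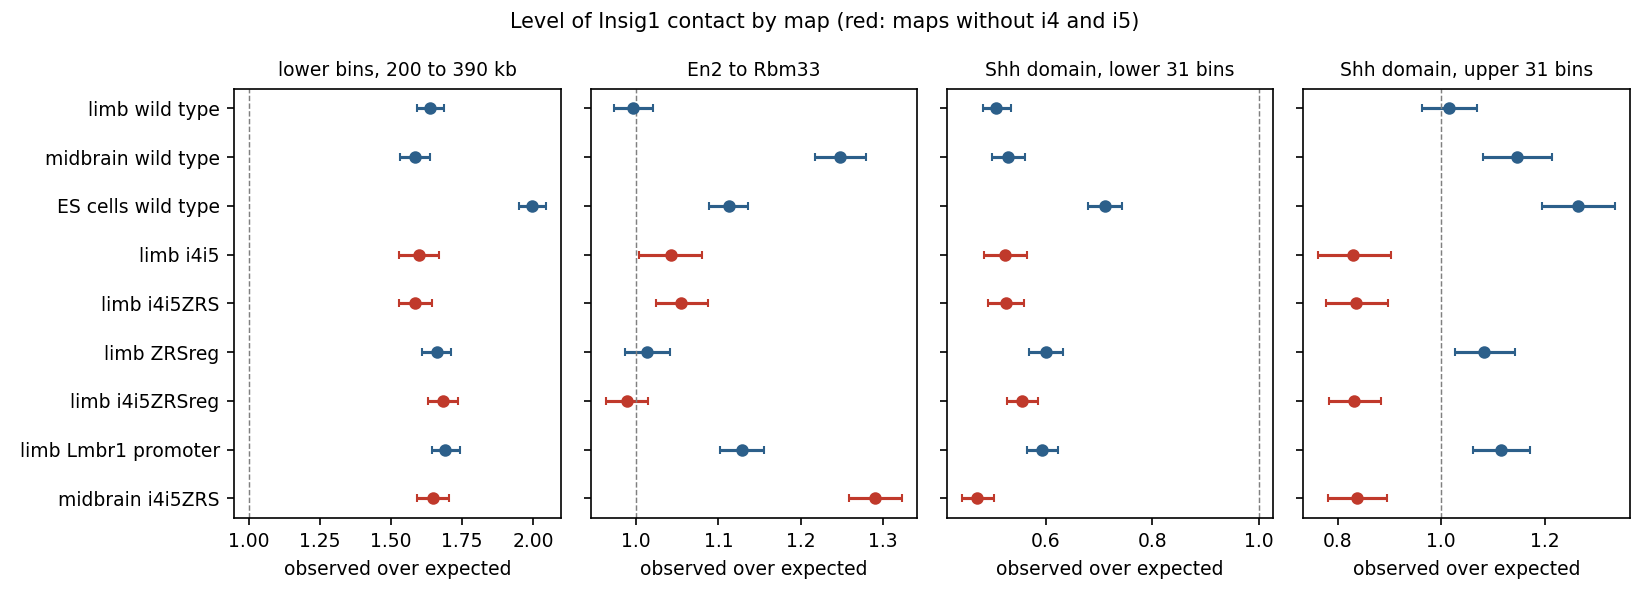
Level of Insig1 contact (observed over expected) with 4 stretches in each of the 9 maps, 1 merged map per point, with 95% counting intervals. Axes differ between panels and do not start at 0. In the upper 31 bins of the Shh domain the 4 maps without i4 and i5 (red) lie at 0.830 to 0.837 and the 5 others (blue) at 1.01 to 1.26.

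In log2 ratios to wild type limb, the upper 31 bins were lower by -0.29 (-0.43 to -0.15) in i4i5, -0.28 (-0.41 to -0.15) in i4i5ZRS and -0.29 (-0.40 to -0.17) in i4i5ZRSreg. In midbrain, i4i5ZRS against wild type gave -0.45 (-0.58 to -0.32), with 2 of 31 bins higher. The limb ratios share 1 reference map. Against the Lmbr1 promoter map, which has the G4 label and keeps the sites, the 3 limb ratios were -0.43, -0.42 and -0.42. The comparison of i4i5ZRSreg with ZRSreg, both of strain label G4 and both with the ZRSreg deletion, gave -0.38 (-0.50 to -0.26), with 3 of 31 bins higher.

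At the ZRS window (5 bins, chr5:29620001-29670000, 1220 to 1260 kb from Insig1), the levels were 1.27 (1.12 to 1.44) in wild type limb, 1.29 in midbrain, 1.59 in ES cells, 1.36 in ZRSreg and 1.24 in the Lmbr1 promoter map. Midbrain i4i5ZRS had 0.999, i4i5ZRSreg 0.937, limb i4i5ZRS 0.889 and limb i4i5 0.761 (0.597 to 0.955). Insig1 contact here rested on 74 (limb i4i5) to 270 (Lmbr1 promoter) contacts. The upper end of the window overlaps 5 bins that held few contacts in limb i4i5 (chr5:29650001-29700000). The log2 ratio to wild type limb was -0.74 (-1.14 to -0.37) in i4i5, -0.52 (-0.85 to -0.20) in i4i5ZRS and -0.44 (-0.73 to -0.16) in i4i5ZRSreg. The last was -0.76 from the lower Insig1 bin alone and -0.18 from the upper. In midbrain it was -0.37 (-0.69 to -0.05), but -0.03 from the lower Insig1 bin alone and -0.74 from the upper one. In each of these 4 comparisons 0 of the 5 bins were higher in the mutant. Against ZRSreg, i4i5ZRSreg gave -0.54 (-0.83 to -0.26), with -0.89 from the lower Insig1 bin and -0.24 from the upper.

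At the median, other viewpoints lost contact with the ZRS window too. Over the 46 other pairs of bins below the lower border, the median ratio with the same ZRS window was -0.47 for i4i5, -0.34 for i4i5ZRS, -0.26 for i4i5ZRSreg and -0.44 for midbrain i4i5ZRS. In the same order, the ratios ran from -1.05 to 0.26, -0.84 to 0.56, -0.96 to 0.32 and -1.03 to 0.76. The highest ratios were thus above 0, but they are extremes of 46 viewpoints and have no counting interval. Insig1 lay above 10, 17, 20 and 25 of the 46. With the upper 31 bins their median was -0.30 for i4i5, -0.18 for i4i5ZRS and -0.25 for i4i5ZRSreg, and Insig1 lay above 24, 15 and 21 of the 46. For midbrain i4i5ZRS the median was -0.26, and Insig1 at -0.45 lay above 2 of 46. The highest ratios with the upper 31 bins were 0.18 for i4i5, 0.10 for i4i5ZRS, -0.01 for i4i5ZRSreg and 0.14 for midbrain i4i5ZRS.

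**Figure D3:**
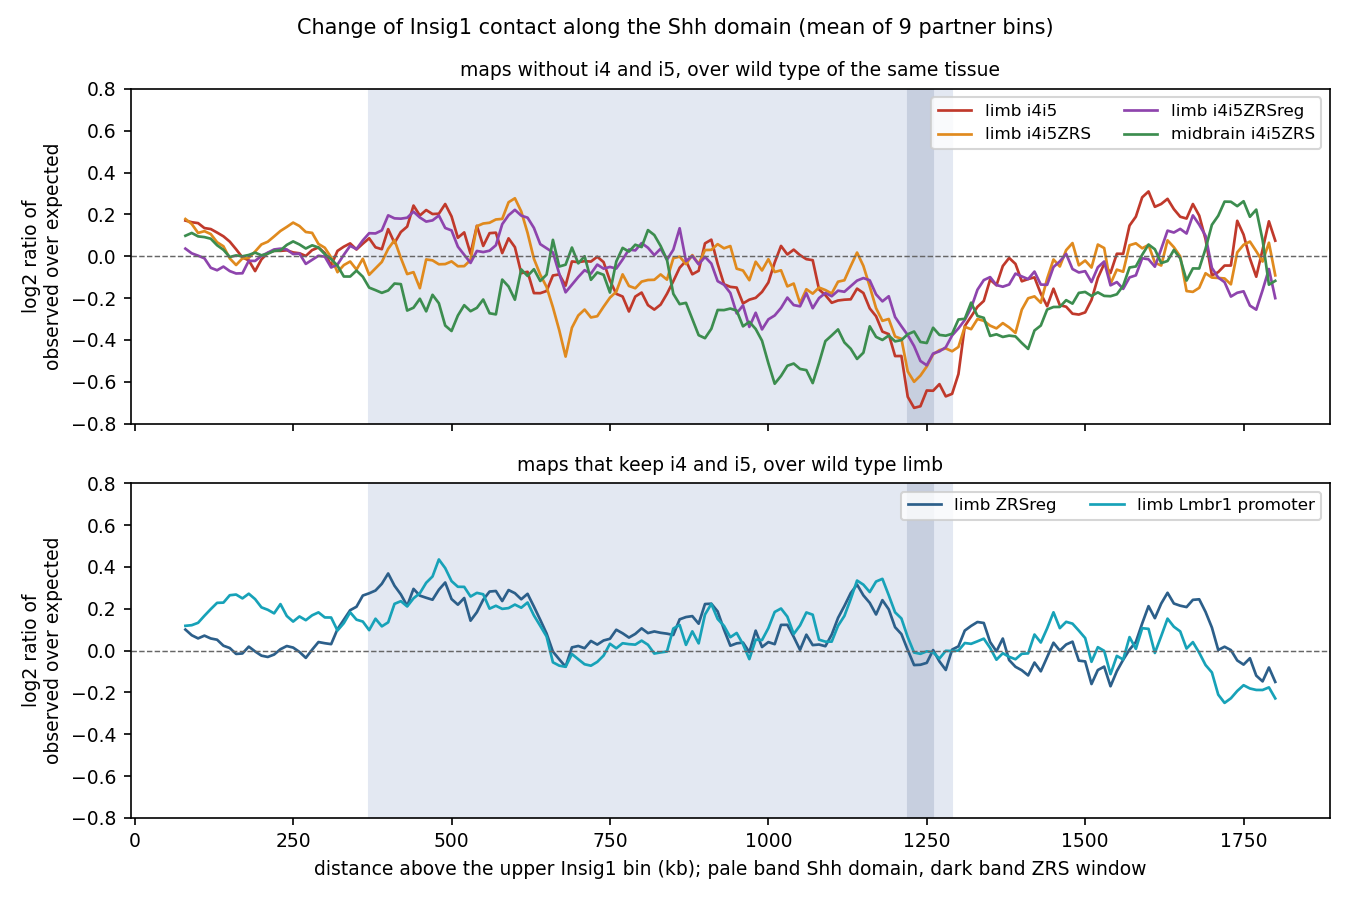
Log2 ratio of Insig1 contact to wild type of the same tissue along the distance above the gene in kb (means of 9 partner bins), with the Shh domain as the pale band and the ZRS window as the dark band. Upper panel, the 4 maps without i4 and i5; lower panel, the 2 mutant maps that keep them. The 4 upper curves are below 0 at the ZRS window, where the zone ratios run from -0.74 to -0.37, and the lower 2 are near 0, at 0.10 (ZRSreg) and -0.04 (Lmbr1 promoter).

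The rest of the domain differed less on the alleles without i4 and i5. In the lower 31 bins, limb i4i5 gave 0.05 (-0.09 to 0.18) and limb i4i5ZRS 0.05 (-0.07 to 0.17) against wild type limb, and i4i5ZRSreg 0.13 (0.03 to 0.24). In midbrain the lower 31 bins had -0.17 (-0.29 to -0.04). For these lower 31 bins, the i4i5ZRS ratio in midbrain minus that in limb was -0.22, with a counting SE of 0.09. The largest single loss in midbrain lay at 1170 kb, below the ZRS window, with a 3-bin log2 ratio of -0.93 (-1.38 to -0.49). Over the whole domain the log2 ratios were -0.10 (-0.18 to -0.02) in i4i5, -0.11 (-0.18 to -0.04) in i4i5ZRS, -0.06 (-0.12 to 0.01) in i4i5ZRSreg and -0.26 (-0.34 to -0.19) in midbrain i4i5ZRS. The whole-domain value of i4i5 turned to 0.07 as a share of the map's total signal.

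The bins with the largest losses in limb i4i5 over wild type limb lay at 1250, 1310 and 1200 kb, with 3-bin log2 ratios of -0.90 (-1.39 to -0.44), -0.78 and -0.74. Past the fold, 14 of 272 partner bins were lower (3.34% of all pairs in that comparison) and 2 were higher (5.24%). Of the 14, 8 lay in the Shh domain, 3 in the upper flank and 3 below Insig1. In limb i4i5ZRS 12 of 272 were lower (3% of all pairs) and 2 were higher (3.94%), with 8 of the 12 in the domain. In i4i5ZRSreg 5 of 276 were lower (2.05%) and 1 was higher (3.57%), and of the 5 only 1 lay in the domain. Midbrain i4i5ZRS over its wild type had 18 of 268 lower (3.24%) and 5 higher (4.51%), and 13 of the 18 lay in the domain. For i4i5ZRSreg over ZRSreg the counts were 5 of 276 lower (2.32%) and 0 higher (5.08%).

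In limb i4i5, 5 bins near the upper border (chr5:29650001-29700000) held few contacts, a log2 ratio to the bins on both sides of -0.62, where the other 8 maps had -0.36 to -0.24. They take in the upper end of the ZRS window and the bin of largest loss in limb i4i5, at 1250 kb. Their part in the result was not tested beyond leaving them out of the upper 31 bins, and not for the ZRS window. Without them the ratio of the upper 31 bins was -0.22 in i4i5, -0.21 in i4i5ZRS, -0.23 in i4i5ZRSreg and -0.43 in midbrain i4i5ZRS. This choice was made after the values were seen.

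The peak of Insig1 contact inside the Shh domain lay far from Shh. It was the bin that starts at 29520001, 1120 kb above Insig1, in 6 of 9 maps. Its level was 1.83 (1.49 to 2.22) in wild type limb, 2.36 (1.89 to 2.91) in ES cells, 1.91 in ZRSreg, 1.82 in limb i4i5ZRS, 1.62 in i4i5ZRSreg and 1.56 in midbrain i4i5ZRS. In limb i4i5 and the Lmbr1 promoter map the peak was the next bin below, at 1110 kb, with 1.51 and 1.74. Wild type midbrain peaked at 1180 kb with 1.76 (1.29 to 2.34), from 47 contacts, where wild type limb had 0.917 (0.627 to 1.29). The bin at 1180 kb was chosen as the midbrain maximum, and the interval does not cover the choice. Midbrain i4i5ZRS had 0.819 there, from 20 contacts, and ES cells had 1.43. At 1120 kb wild type midbrain had 1.52 (1.17 to 1.95). The bin at 1120 kb was above 1 in limb i4i5ZRS and i4i5ZRSreg, whose ZRS window levels were below 1. In both maps it was chosen as the highest of the 93 domain bins. Its level there cannot show whether this contact outlasts the loss of i4 and i5. In limb i4i5, where another bin was the peak, the bin at 1120 kb had 1.28 (0.896 to 1.77).

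On the 2 mutant alleles that keep i4 and i5, contact with the upper end of the domain was not lower. ZRSreg over wild type limb gave 0.15 (0.08 to 0.21) over the domain, 0.24 (0.14 to 0.35) in its lower 31 bins and 0.09 (-0.01 to 0.20) in its upper 31 bins. It gave 0.02 (-0.03 to 0.08) with En2 to Rbm33. The Lmbr1 promoter map gave 0.14 (0.08 to 0.20) over the domain, 0.23 (0.12 to 0.33) in the lower 31 bins and 0.14 (0.03 to 0.24) in the upper 31 bins. It also had more contact with En2 to Rbm33, 0.18 (0.13 to 0.23), with 25 of 27 bins higher, although the deleted promoter lies at the other end of the domain. As a share of total signal that value was -0.01. Set against each other, the 2 maps did not differ in the domain beyond counting error, at 0.748 and 0.746. Both are G4 and wild type limb is C57BL/6.

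For the Lmbr1 promoter map, the 46 other pairs of bins below the lower border had domain ratios from -0.21 to 0.14 with a median of 0.01, and Insig1 lay above all 46. With En2 to Rbm33 it lay above 31 of 32, whose median was 0.04. Past the fold, 1 of 276 partner bins was higher (1.57% of all pairs) and 2 were lower (1.36%). In ZRSreg 4 of 275 were higher (1.2%) and 3 were lower (1.6%). In both maps few single bins passed the fold, and few of all pairs did.

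Further loss of ZRSreg on the allele without i4 and i5 was read against i4i5. The ratio of i4i5ZRSreg to i4i5 was 0.05 (-0.03 to 0.13) with the domain, 0.00 (-0.14 to 0.15) with its upper 31 bins and 0.30 (-0.10 to 0.71) with the ZRS window, where the sign turned with the viewpoint: -0.089 from the lower Insig1 bin and 0.65 from the upper. It gave -0.08 (-0.14 to -0.01) with En2 to Rbm33 and 0.10 (0.05 to 0.14) with the lower bins. Here 4 of 273 partner bins were higher past the fold (2.14%) and 2 were lower (1.96%). The interval at the ZRS window is wide because limb i4i5 had 74 contacts there.

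In the upper flank above the domain, contact of Insig1 was again over the average, as was the median of other viewpoints. The upper flank was at 1.23 (1.18 to 1.28) in wild type limb, 1.24 in midbrain, 1.32 (1.26 to 1.39) in ES cells, 1.26 in ZRSreg and 1.23 in the Lmbr1 promoter map. It was 1.19 in limb i4i5, 1.16 in i4i5ZRSreg, 1.13 in limb i4i5ZRS and 1.09 (1.03 to 1.15) in midbrain i4i5ZRS. The 4 maps without i4 and i5 held the lowest 4 places, but no neighbours in the order differed beyond counting error. Over the 46 other pairs of bins below the lower border, the median level with the upper flank was 1.13 in wild type limb, 1.23 in midbrain and 1.19 in ES cells. Insig1 lay above 25, 25 and 27 of the 46, and above 16 in midbrain i4i5ZRS. Midbrain i4i5ZRS against its wild type gave -0.19 (-0.30 to -0.08) and i4i5ZRSreg against ZRSreg -0.11 (-0.21 to -0.02). Against wild type limb, i4i5ZRS gave -0.12 (-0.23 to -0.02), while i4i5 at -0.05 (-0.16 to 0.06) and i4i5ZRSreg at -0.08 (-0.17 to 0.01) were within counting error. Single bins were compared here with little depth. The highest bin above the domain was a different one in almost every map and held 7 to 57 contacts.

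A comparison of both sides of Insig1 at the same separations needs no expected value. From 20 kb to 590 kb, the log2 of signal above over signal below was -0.35 (-0.40 to -0.30) in wild type limb and -0.33 (-0.38 to -0.29) in ES cells. In midbrain it was -0.10 (-0.15 to -0.04). Among the mutants, i4i5ZRSreg had -0.41, ZRSreg -0.30, both limb i4i5 and limb i4i5ZRS -0.23, the Lmbr1 promoter map -0.19 and midbrain i4i5ZRS -0.04 (-0.09 to 0.02). Over this range contact of Insig1 leaned downwards beyond counting error in 8 of 9 maps, and least in the 2 midbrain maps. From 50 to 360 kb wild type midbrain was at -0.02 (-0.09 to 0.05), so 7 of 9 leaned there.

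The lean depended on separation. At 100 to 290 kb, which takes in most of En2 to Rbm33, midbrain was at 0.09 (-0.00 to 0.18) and midbrain i4i5ZRS at 0.10 (0.01 to 0.19), while wild type limb was at -0.26 (-0.35 to -0.18) and ES cells at -0.25. At 300 to 590 kb, where the bins above lie mostly beyond the lower border, it was -0.59 (-0.71 to -0.48) in wild type limb and -0.25 in both midbrain and ES cells. ES cells had the strongest lean close to the gene, -0.46 (-0.53 to -0.40) at 20 to 90 kb.

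**Figure D4:**
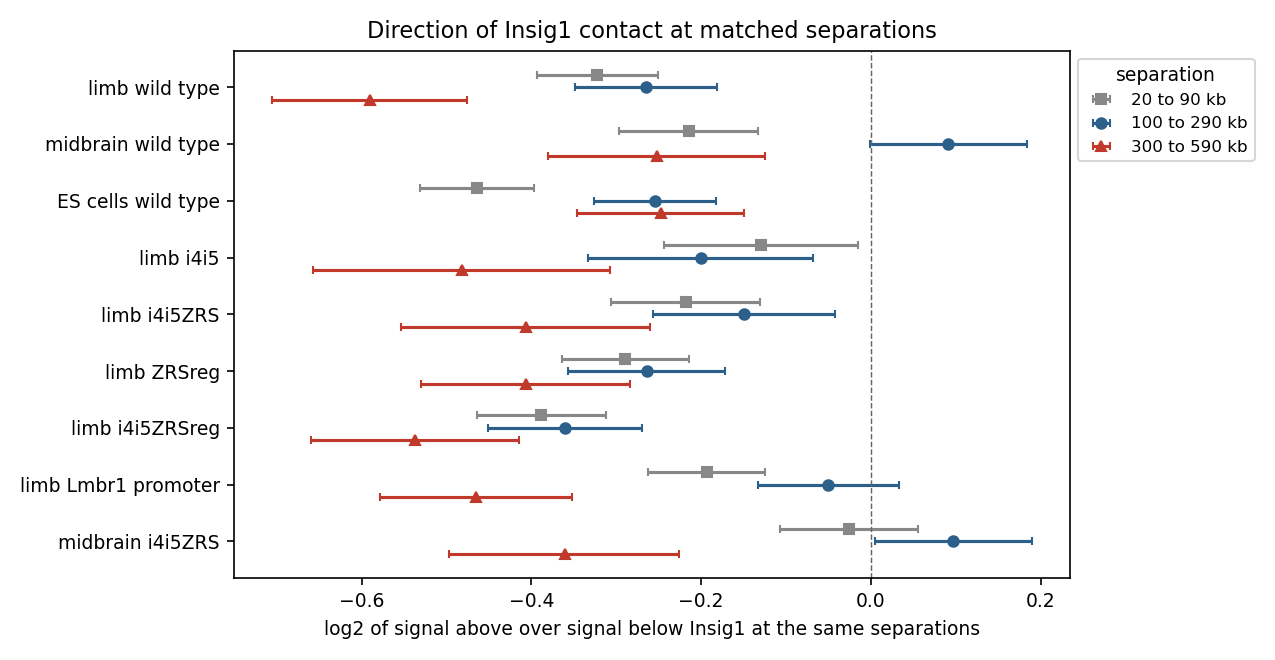
Log2 of the signal of Insig1 with bins above over bins below at the same separations, in 3 ranges of separation and 9 maps, 1 merged map per point, with 95% counting intervals. Values below 0 mean more contact below the gene. At 100 to 290 kb the 2 midbrain maps lie at 0.09 and 0.10 and the 7 others below 0. Wild type midbrain (-0.00 to 0.18) and the Lmbr1 promoter map, at -0.05 (-0.13 to 0.03), are within counting error of 0.

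The profiles most like that of Insig1 were those of bins above it, up to the lower border. In wild type limb the 3 most like pairs of bins, at least 50 kb apart, started at 28640001, 28470001 and 28700001, of which the second begins 1 bin below En2 to Rbm33. Spearman's rho of their observed over expected profiles with that of Insig1 was 0.77, 0.73 and 0.71 over 260 to 262 partner bins, where the median over 268 viewpoints was 0.21. In midbrain the same 3 had 0.76, 0.75 and 0.73 and in ES cells 0.70, 0.66 and 0.76. The lowest values were in limb i4i5, the shallowest map, at 0.62, 0.45 and 0.54. Profiles of 1 map share its depth and its expected values, and neighbouring bins are not independent, so the rho values are a description. The most like pair takes in the window's peak bin, 240 kb above Insig1.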

How the data were processed

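Per the labels' protocols, collagenase-treated tissue was fixed, DpnII served as the restriction enzyme, and ligated fragments were captured on SureSelect beads. The tools named in the submitters' processing notes are SAMtools, Juicer, Bowtie2 (2.3.4.1) and cutadapt (1.15), with mm9 as the build and no settings. Per the names the labels give to the maps, the authors merged the samples of each group, applied a mapping quality threshold and deposited a KR balanced signal per pair of 10 kb bins. Pairs not listed were taken as 0. The series design calls wild type samples biological and mutant samples technical replicates. A library number occurs in the titles of both 1 wild type limb sample and another, and the title of 1 ES cell sample has another suffix than its map's name.

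Whole contact counts were recovered from the balanced signal (100% within 0.01 of whole in every map) in Python 3.11.15, numpy 2.4.6 and scipy 1.17.1. Zone intervals are exact Poisson or conditional binomial ones; weighting contacts by their balancing factors would widen those of the 3 main zones 1.02 to 1.14-fold. Pairs of reads are not independent molecules. Insulation used a square of 10 by 10 bins. The ZRS window is 830 to 870 kb above the Shh promoter bin, from general knowledge. Named bins were the highest bin per zone and map at 50 kb or more, the 3 highest and 3 lowest ratios per comparison, of which some are printed, and the 3 most like viewpoints. Zones cut into 3 equal runs of bins, ranges below Insig1 and the other viewpoints were added after values were seen. Members and lists were chosen with earlier results of these data known. The ratios and the recovery of counts were tested on simulated data. Alternatives were the expected value, scaling, viewpoint bin, balancing, depth, zone limits, fold, contact minimum and a mutant reference map of strain label G4. That map was the Lmbr1 promoter map, or ZRSreg for the Lmbr1 promoter map itself.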

Additional observations from a re-analysis of the deposited data

How the results depend on the processing

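No paired analysis was possible because each group is 1 merged map, and leaving out a replicate was not possible for the same reason. Log2 ratios to wild type limb are given below unless another reference is named. With signal as a share of the map total and no expected value, ratios with the lower bins were -0.15 for midbrain, -0.17 for i4i5ZRS, -0.093 for ZRSreg, -0.034 for i4i5ZRSreg, -0.16 for the Lmbr1 promoter and 0.035 for i4i5ZRSreg over i4i5. With En2 to Rbm33 they were 0.24 for midbrain, -0.052 for i4i5ZRS, -0.10 for ZRSreg, -0.12 for i4i5ZRSreg, -0.014 for the Lmbr1 promoter and -0.18 for i4i5ZRSreg over i4i5. With the Shh domain they were 0.0096 for midbrain, -0.12 for ES cells, 0.075 for i4i5, -0.22 for i4i5ZRS, 0.081 for ZRSreg, 0.021 for the Lmbr1 promoter, -0.10 for i4i5ZRSreg over ZRSreg and -0.096 for i4i5ZRSreg over i4i5; for ES cells the upper 31 bins turned to -0.34 and the ZRS window to -0.39. This scaling keeps each map's own decay with distance. The reference of strain label G4 was the Lmbr1 promoter limb map, which is a mutant and not a wild type. Against it, ratios with the lower bins were 0.098 for ES cells, -0.015 for i4i5ZRS, 0.032 for ZRSreg and 0.072 for i4i5ZRSreg. With En2 to Rbm33 they were -0.020 for ES cells, -0.11 for i4i5, -0.097 for i4i5ZRS, -0.15 for ZRSreg and -0.19 for i4i5ZRSreg. With the Shh domain they were 0.15 for ES cells, -0.25 for i4i5, -0.25 for i4i5ZRS, 0.0023 for ZRSreg and -0.20 for i4i5ZRSreg. The Lmbr1 promoter map itself was read against ZRSreg, at -0.0023, which is the ZRSreg ratio with its sign turned. Counts without balancing gave -0.033 (midbrain), 0.20 (ES cells), -0.11 (i4i5), 0.0065 (Lmbr1 promoter) and 0.14 (i4i5ZRSreg over i4i5) for the lower bins, and 0.37 for ES cells with the domain. With the median in place of the mean for the expected value, the domain ratios were -0.20 (i4i5), -0.18 (i4i5ZRS) and -0.12 (i4i5ZRSreg). Thinned to 1177173 contacts, midbrain gave 0.27 with En2 to Rbm33 and ES cells 0.025 with the lower bins. Without pairs inside the domain in the expected value, ES cells gave 0.21 with En2 to Rbm33. From 50 to 360 kb, the lean of Insig1 was -0.023 (-0.091 to 0.046) in midbrain, where it was no longer beyond counting error, -0.46 in i4i5ZRSreg and 0.035 in midbrain i4i5ZRS. Past 2-fold, partner bins numbered 0 higher and 2 lower of 273 in midbrain over limb (0.109% and 0.175% of all pairs), 2 higher and 0 lower of 272 in ES cells (0.315% and 2.88%), and 0 higher and 1 lower of 275 in ZRSreg (0.0866% and 0.137%). They numbered 0 in the 7 other comparisons, where 0.181 to 0.724% of all pairs passed in either direction. Past 1.5-fold with at least 100 contacts, midbrain had 6 of 241 (3 higher, 3 lower; 1.13% and 1.79% of all pairs) and i4i5 had 10 of 228 (0 and 10; 4% and 2.42%). ZRSreg had 4 of 246 (2 and 2; 0.541% and 0.607%), i4i5ZRSreg 1 of 254 (0 and 1; 2.68% and 1.51%) and the Lmbr1 promoter map 1 of 254 (0 and 1; 0.734% and 0.722%). Midbrain i4i5ZRS had 14 of 227 (1 and 13; 3.13% and 2.47%) and i4i5ZRSreg over i4i5 had 3 of 230 (2 and 1; 0.931% and 0.942%). For midbrain over limb, the ratio with En2 to Rbm33 stayed between 0.24 and 0.37 over 8 alternatives. For the upper 31 bins of the domain, the ratios stayed below 0 in all alternatives for i4i5 (-0.43 to -0.02), i4i5ZRS (-0.42 to -0.19), i4i5ZRSreg (-0.42 to -0.14) and midbrain i4i5ZRS (-0.61 to -0.29). The cause was not tested for any value that moved or reversed. Depth limits single bins above the domain and the ZRS window of limb i4i5.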
